A study of Homo sapiens with 74 samples.

Results

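Collagens and laminins other than type I collagen were followed in K562 and HEL, human erythroleukaemia lines that grow in suspension. Members were all genes named COL followed by a type number, A and a chain number, or LAMA, LAMB or LAMC with a number, without COL1A1 and COL1A2. This gave 54 genes, 42 collagen chains and 12 laminin chains, of the 28131 genes listed. The rule reads gene names and no measured value.

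Collagens are secreted or membrane-bound proteins built from chains that wind into a triple helix. Fibril-forming types make the fibres of connective tissue. Type IV makes the network of basement membranes, the thin sheets under epithelia and around vessels. Laminins, the other main basement membrane proteins, are cross-shaped assemblies of an alpha, a beta and a gamma chain, and the chains pair inside the cell before secretion. Blood cell lines are not a classic source of either family, so the levels described here range from abundant to absent.

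Polyadenylated RNA was sequenced in 5 groups. K562 cells were wild type (control), DOT1L-/- (DOT1L KO) or ENL-/- (ENL KO), and HEL cells were either control or carried a DOT1L knockdown (DOT1L KD). DOT1L is a histone methyltransferase, and ENL, encoded by MLLT1, is a chromatin reader found in complexes with it. K562 grew in DMEM and HEL in RPMI-1640, and the labels do not say how DOT1L was knocked down or whether a knockout line was 1 clone. K562 had 3 control columns, of which columns 2 and 3 held identical counts in every gene and were counted as 1 library, leaving n = 2, and 3 libraries of each knockout. HEL had 2 libraries of each kind. Nothing states that libraries of a group came from separate cultures, so p-values measure only the spread between these libraries. A lane is named in the labels of the control and DOT1L KO libraries of K562 but in none of the ENL KO libraries, so lane and ENL KO cannot be told apart.

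Library totals ranged from 12151495 to 29236703 counts. Levels are in counts-per-million (CPM), scaled to library size with edgeR's TMM factors, and a library with 3 counts of a gene (the floor used here) stood at 0.101 to 0.244 CPM. Intervals and floors cover counting error only. DOT1L mRNA was 270 and 256 CPM in K562 control, 186, 176 and 184 after DOT1L KO and 243, 265 and 245 after ENL KO. In HEL it was 97.5 and 87.4 CPM in control and 29.1 and 30.0 after KD. MLLT1 was 214 and 219 CPM in K562 control and 153, 157 and 154 after ENL KO. Both targeted genes were lower in every library of their own group, but neither knockout removed the mRNA: the log2 fold change was -0.53 (SE 0.057, edgeR adjusted p 4.09e-06) for DOT1L and -0.48 (SE 0.051, edgeR adjusted p 5.26e-06) for MLLT1. All 8 erythroleukaemia markers were present in every group (3399 to 4576 CPM summed).

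Of the 54 members, 28 passed the filter on low counts in K562 and 14 in HEL. At or under 3 counts in every library were 16, among them COL4A1, COL4A4, COL5A1, COL5A3, COL8A1, COL11A2, COL12A1, COL13A1, COL16A1, COL17A1, COL20A1, COL22A1, COL27A1, LAMA1 and LAMA3. COL4A1, COL8A1 and COL13A1 had 0 counts in all libraries. In HEL 29 members did not exceed 3 counts in any library, and in K562 18 did not. These numbers are not on equal terms, since HEL had 4 libraries and K562 8. A library with 3 counts also stood at 0.238 to 0.244 CPM in HEL but at 0.101 to 0.195 CPM in K562. The filter kept some members through 1 group alone: in K562, COL21A1, COL4A6, COL9A1, LAMB4 and LAMC3 had a group at or under the floor in all its libraries, so they could hardly pass the filter without differing.

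The sequences upstream of 7 chains that vary among the groups or stand high, and of the silent COL4A1, are shown before their values; COL4A1, COL4A2 and LAMB1 each lie beside another member. All come from RefSeq (GRCh38.p14), read 5′ to 3′ on the gene's strand (the plus strand for the gap between COL4A1 and COL4A2), and end before the first transcribed base. Capitals mark matches to short motifs on either strand, which may overlap. The GC box was searched as GGGCGG. The CCAAT box was searched by the letters of its name. For the TATA box the letters were TATAAA. For the GATA motif they were AGATAA. The gap between COL4A1 and COL4A2 lies at chr13:110307158-110307266, LAMB1 at chr7:108003162-108003261, LAMA5 at chr20:62367313-62367412, LAMC1 at chr1:183023320-183023419, COL15A1 at chr9:98943657-98943712, COL18A1 at chr21:45405065-45405164 and COL25A1 at chr4:109302659-109302758.
COL4A1-COL4A2 gap: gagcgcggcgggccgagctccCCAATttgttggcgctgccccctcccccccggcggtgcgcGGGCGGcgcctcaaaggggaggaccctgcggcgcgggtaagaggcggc
LAMB1: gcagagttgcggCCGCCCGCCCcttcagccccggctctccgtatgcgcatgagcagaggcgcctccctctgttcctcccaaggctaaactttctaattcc
LAMA5: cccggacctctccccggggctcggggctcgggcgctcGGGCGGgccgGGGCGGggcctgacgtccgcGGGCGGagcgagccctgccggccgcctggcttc
LAMC1: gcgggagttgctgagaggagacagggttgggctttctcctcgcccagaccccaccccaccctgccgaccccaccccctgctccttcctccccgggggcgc
COL15A1: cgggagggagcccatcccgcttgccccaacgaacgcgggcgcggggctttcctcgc
COL18A1: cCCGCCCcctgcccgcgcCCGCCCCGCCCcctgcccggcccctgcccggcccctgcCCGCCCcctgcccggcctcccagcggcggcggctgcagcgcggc
COL25A1: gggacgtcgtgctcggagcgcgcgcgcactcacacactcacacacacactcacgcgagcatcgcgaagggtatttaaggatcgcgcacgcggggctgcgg

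The stretches for COL18A1, LAMA5 and LAMB1 held 4, 3 and 2 GC boxes, and those for LAMC1, COL15A1 and COL25A1 held none. The COL15A1 stretch has only 56 bases, against 100 for each of the other single genes. In windows of 250 bases upstream of the RefSeq start, LAMC1 held 3 GC boxes, COL15A1 held 1 and COL25A1 held 0. Such windows held 5 for LAMA5, 4 for LAMB1, and 9 and 1 for the 2 starts of COL18A1. RefSeq windows of 250 bases upstream of a start were found for 41 of the 54 members, 55 windows in all. A GC box was in 32 of them (58.2%), against 42.6% of all 35116 such windows. A CCAAT box was in 14 (25.5%, against 32% of all), a TATA box in 8 (14.5%, against 10.7%) and the GATA motif in 5 (9.09%, against 9.17%). The median number of CpG dinucleotides per window was 12 in members and 11 in all. These shares are descriptions of the letters alone.

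In K562, most members that changed were higher after DOT1L KO. Of the 28 tested, 20 passed an adjusted p of 0.05, 15 higher and 5 lower; over all 14301 genes tested 51.1% passed (26.9% higher and 24.2% lower). Among the chains that rose were laminin beta 1 (LAMB1, 25.5 to 140 CPM), type XVIII (COL18A1, 125 to 316 CPM), type XV (COL15A1, 10.6 to 63.4 CPM) and type III (COL3A1, 1.92 to 14.6 CPM). Laminin alpha 5 (LAMA5, 249 to 108 CPM) and COL14A1 (6.59 to 1.31 CPM) fell. The median log2 fold change was 1.26 over the members tested, 0.28 without the 5 members that have a group at the floor, and 0.011 over all genes.

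Leaving aside the 5 members with a group at the floor, 15 of 23 were called, 11 higher and 4 lower. Called with a change of 1 or more on the log2 scale were 13 of 23, beside 15.8% of all genes. Shares of all genes include genes with a group at the floor. Groups did not overlap in 19 of these 23, beside 68.1% of all genes. A control library decided 2 of the calls: COL9A3 lost its call without control replicate 1 (log2 fold change -0.73) and COL6A5 without control replicate 2 (-0.23). In bulk RNA, a change in the number of cells of a type and a change in RNA per cell cannot be told apart. Beside this result, the fibroblast list (8 genes) summed to 78.8 to 81.7 CPM in control and 118 to 124 CPM after DOT1L KO, with LUM and FAP at 0 in both groups. Nearly all of that sum came from the type I chains, which went opposite ways: COL1A1 from 10.9 to 117 CPM and COL1A2 from 67.5 to 1.87 CPM. Of the 3 fibroblast genes tested, 1 was called higher and 2 lower. The endothelial list (6 genes) summed to 25.6 to 28.3 and 28.6 to 32.2 CPM, with CDH5 and CLDN5 at 0 in both. Of the 2 endothelial genes tested, 1 was called, higher. TEK, an endothelial receptor kinase, stood at 0.047 CPM in control, under the floor, and at 5.83 CPM after DOT1L KO. The epithelial list (6 genes) summed to 1148 to 1159 and 964 to 1070 CPM, with KRT5 and KRT14 at 0 in both. The part of these cells' genes in the result was not tested.

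**Figure D1:**
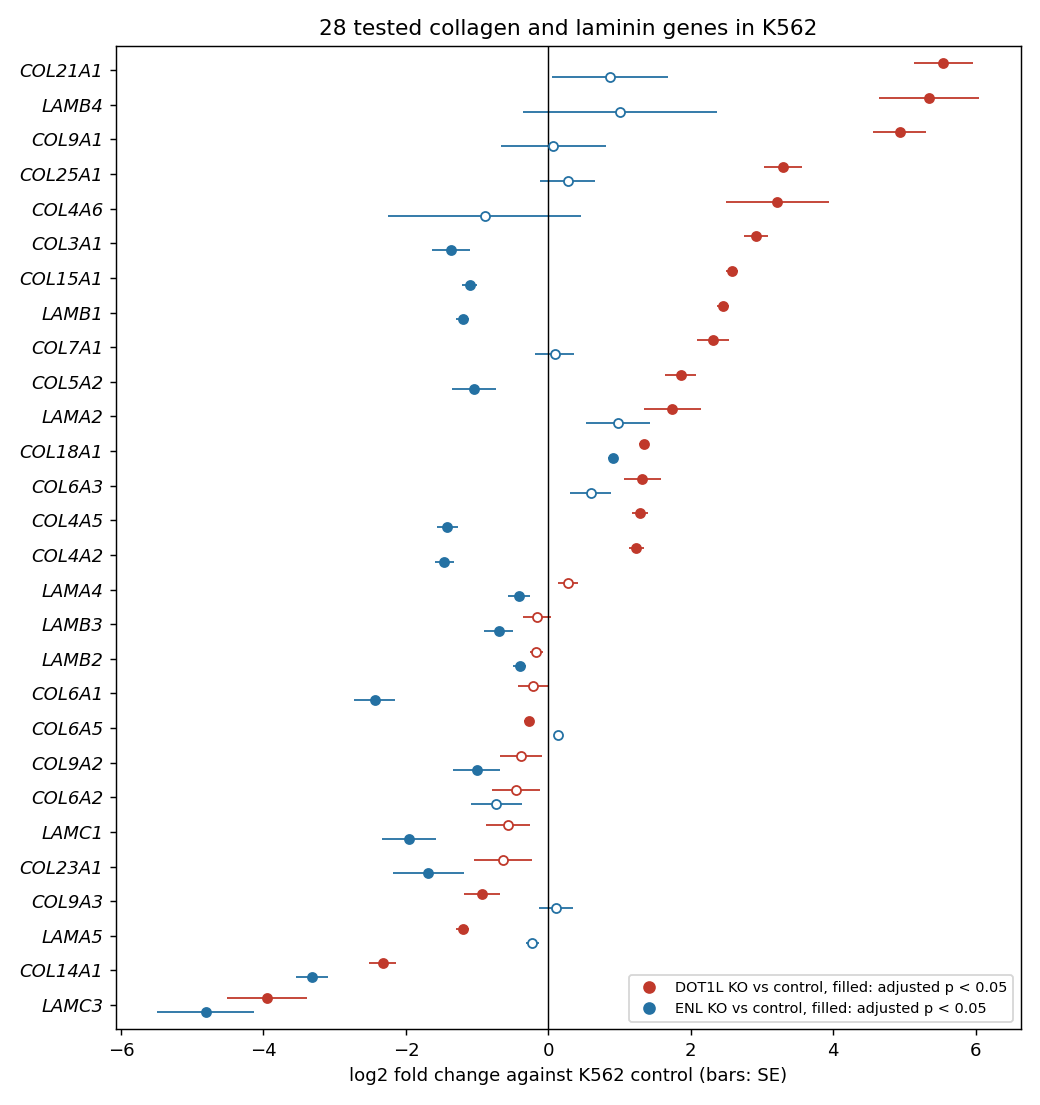
Log2 fold change against K562 control (x axis, bars are SE) of the 28 tested members (y axis) after DOT1L KO (red, n = 3) and ENL KO (blue, n = 3), both against the same 2 control libraries. Filled points passed an adjusted p of 0.05. The upper 15 genes have filled red points to the right, while the filled blue points lie to the left of 0 except for COL18A1.

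After ENL KO, members fell. Of the 28 tested, 16 passed, 15 lower and 1 higher; over all genes 41.0% passed (18.8% higher and 22.2% lower). The median log2 fold change was -0.72 over the members and 0.0028 over all genes. LAMB1 fell from 25.5 to 11.1 CPM, COL15A1 from 10.6 to 4.92, COL4A2 from 8.37 to 3.05 and COL6A1, a beaded-filament chain, from 2.23 to 0.405. COL18A1 was the member that rose (125 to 234 CPM).

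Without the 5 members at the floor the median was -0.73, and 15 of 23 were called, 1 higher and 14 lower. Of these 23, 11 were called with a change of 1 or more on the log2 scale, beside 11% of all genes. No overlap with control was seen in 20, beside 59.6% of all genes. Calls near the threshold depended on libraries: LAMA4 lost its call when any 1 of the 8 libraries was left out (log2 fold changes -0.53 to -0.28). COL5A2 (-0.64), COL9A2 (-0.62) and LAMB3 (-0.75) lost theirs without control replicate 1. COL5A2 also lost its call without ENL KO replicate 2 (-0.93), COL9A2 without ENL KO replicate 1 (-0.84) or 2 (-1.02) and with DESeq2, and LAMB3 without control replicate 2 (-0.64) and with DESeq2. Summed CPM of the fibroblast, endothelial and epithelial lists was 84.4 to 89.9, 22.1 to 25.3 and 1217 to 1368 after ENL KO, and their part was not tested.

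DOT1L KO and ENL KO were compared with the same control libraries, so the knockouts were also set against each other directly. Members were higher in DOT1L KO: of 28 tested, 24 passed, 21 higher and 3 lower in DOT1L KO, beside 60.2% of all genes (31.8% higher and 28.3% lower). Among the largest were COL9A1 (log2 difference 4.86), COL21A1 (4.68), LAMB4 (4.34), COL3A1 (4.29), COL4A6 (4.11), COL15A1 (3.68) and LAMB1 (3.66). COL9A3 (-1.04), LAMA5 (-0.98) and COL6A5 (-0.41) were lower in DOT1L KO than in ENL KO. The median was 1.22 over members and 0.00029 over all genes. Without COL4A6, LAMB4 and LAMC3, which had a group at the floor, it was 1.04 and 22 of 25 were called. COL9A1 and COL21A1 stayed among these 25, since each reached 4 counts in an ENL KO library. The filter kept both through DOT1L KO alone, so they too could hardly be tested without differing. LAMB3 lost its call with DESeq2, with no filter on low counts and without DOT1L KO replicate 2 or 3 or ENL KO replicate 2 or 3 (0.49 to 0.55). LAMB2 lost its call without DOT1L KO replicate 3 or ENL KO replicate 2 or 3 (0.15 to 0.24), and COL6A3 without ENL KO replicate 2 (0.57).

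**Figure D2:**
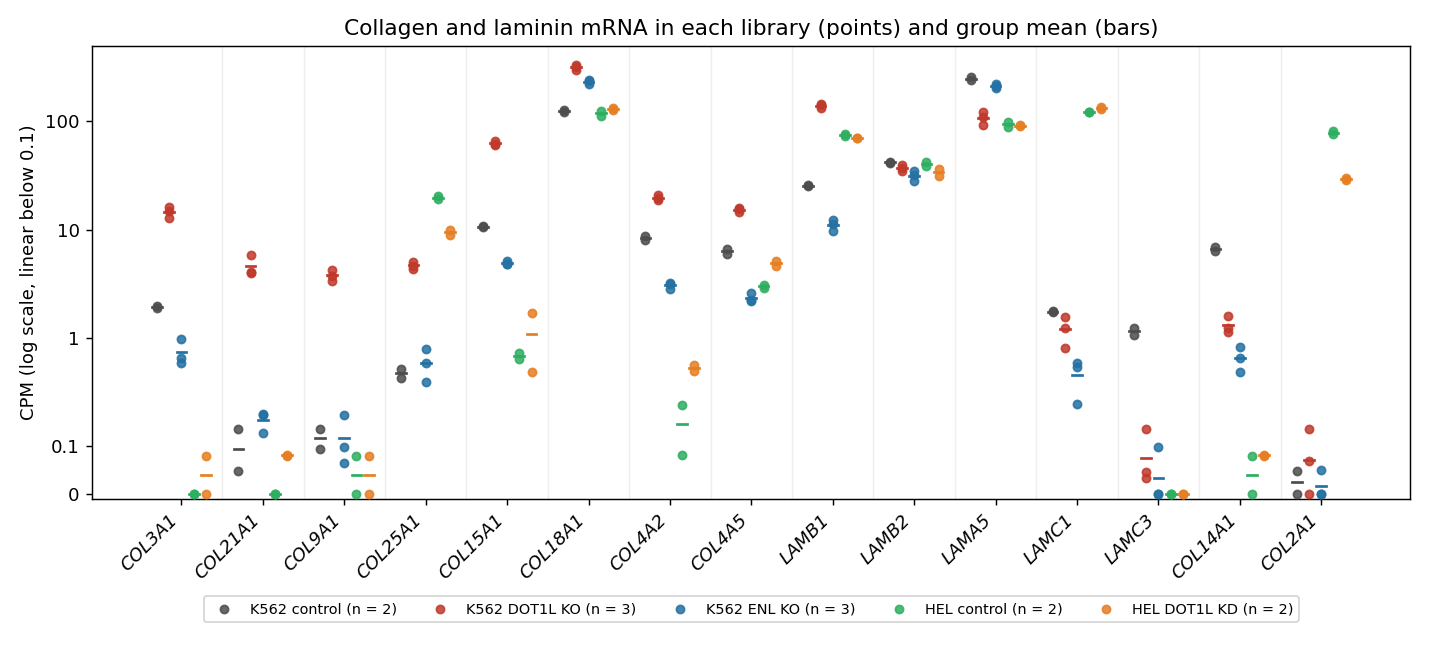
CPM (y axis, log scale that is linear below 0.1) of 15 members (x axis) in each of the 12 libraries, coloured by group, with short bars at group means. COL3A1, COL15A1, COL4A2, COL4A5 and LAMB1 are highest in the K562 DOT1L KO libraries and lowest among the K562 groups in ENL KO, and LAMC1 and COL2A1 are high in HEL libraries alone.

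The laminin alpha chains carry the cell-binding end of the molecule. LAMA5, an alpha chain of many adult basement membranes, was 257 and 241 CPM in K562 control, 110, 92.9 and 122 after DOT1L KO and 224, 211 and 204 after ENL KO. HEL libraries had 98.5 and 89.3 CPM in control and 90.3 and 93.2 after KD. Every DOT1L KO library lay below every other K562 library, while the HEL groups overlapped. On the log2 scale the fold change was -1.20 after DOT1L KO (SE 0.089, edgeR adjusted p 1e-07), -0.22 after ENL KO (SE 0.089, edgeR adjusted p 0.0583) and -0.03 in HEL (SE 0.050, edgeR adjusted p 0.589).

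LAMA4, the alpha chain of vessel-wall laminins, was 4.23 and 5.01 CPM in K562 control, 5.59, 5.88 and 5.30 after DOT1L KO and 3.72, 3.36 and 3.32 after ENL KO. It had 0 counts in all 4 HEL libraries. The HEL control level was at least 19.3-fold lower than the K562 control level, taking the floor of 3 counts per library. LAMA4 did not pass after DOT1L KO (0.28 on the log2 scale, edgeR adjusted p 0.114) and passed narrowly after ENL KO (-0.41, SE 0.15, edgeR adjusted p 0.0453), a call lost with DESeq2, with no filter on low counts, with a replicate block and in a fit of the 2 groups alone. LAMA2, the alpha chain of muscle laminin, had 4 and 7 counts in K562 control and 18, 28 and 18 after DOT1L KO (log2 fold change 1.74, SE 0.40, edgeR adjusted p 0.0023), always under 1 CPM.

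Among the beta chains, LAMB1 lay on opposite sides of control in the knockouts. LAMB1, the beta chain of the most widespread laminins, was 25.2 and 25.8 CPM in K562 control. It stood at 133, 141 and 145 CPM after DOT1L KO and at 9.61, 12.3 and 11.3 after ENL KO, so the groups did not overlap in either direction. The log2 fold change was 2.46 after DOT1L KO (SE 0.085, edgeR adjusted p 1.05e-10) and -1.20 after ENL KO (SE 0.094, edgeR adjusted p 2.94e-07). In HEL, LAMB1 was 73.0 and 76.4 CPM in control and 69.9 and 69.8 after KD (log2 fold change -0.10, SE 0.053, edgeR adjusted p 0.115).

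LAMB2, the beta chain of synaptic and kidney laminins, was 42.6 and 41.2 CPM in K562 control, 36.9, 35.0 and 39.9 after DOT1L KO and 34.6, 32.3 and 27.9 after ENL KO. HEL control had 42.2 and 39.0 CPM and HEL KD 31.5 and 36.4 CPM. The log2 fold change was -0.17 after DOT1L KO (SE 0.091, edgeR adjusted p 0.135), -0.40 after ENL KO (SE 0.093, edgeR adjusted p 0.0035) and -0.26 in HEL (SE 0.076, edgeR adjusted p 0.0034). LAMB1 thus went from below LAMB2 in K562 control to above it after DOT1L KO: per kilobase of exon, LAMB1 was 4.51 ± 0.072 CPM (SD, n = 2) in control and 24.7 ± 1.08 (SD, n = 3) after DOT1L KO, and LAMB2 was 7.21 ± 0.170 and 6.41 ± 0.424.

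LAMB3, the beta chain of epidermal laminin, was 2.23 and 2.41 CPM in K562 control, 2.00, 2.06 and 2.18 after DOT1L KO and 1.59, 1.36 and 1.30 after ENL KO. In HEL it was 2.32 and 1.98 CPM in control and 3.82 and 3.25 after KD. It fell after ENL KO (log2 fold change -0.70, SE 0.21, edgeR adjusted p 0.0165) and rose in HEL (0.72, SE 0.26, edgeR adjusted p 0.0153). LAMB4 lies 20389 bases beyond LAMB1 on the same strand of chromosome 7. It had 1 and 0 counts in K562 control, 24, 32 and 30 after DOT1L KO, and 2, 1 and 0 after ENL KO. Pooled over libraries and scaled, DOT1L KO held 50.4 times the control level (95% interval 8.81 to 2015, from 86 against 1 counts), and the fitted log2 fold change was 5.35 (SE 0.70, edgeR adjusted p 2.73e-05). That fitted value was 7.68 without control replicate 1 and 4.51 without control replicate 2. HEL libraries held 4 and 2 LAMB4 counts in control and 2 and 1 after KD.

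Gamma chains set the lines apart. LAMC1, the gamma chain of most laminins, was 121 and 123 CPM in HEL control and 138 and 130 after KD, but 1.72 and 1.75 CPM in K562 control. After DOT1L KO it was 1.54, 0.811 and 1.23 CPM and after ENL KO 0.242, 0.535 and 0.586. The ENL KO libraries lay below all other K562 libraries. The log2 fold change was -1.96 after ENL KO (SE 0.38, edgeR adjusted p 1.00e-03), -0.57 after DOT1L KO (SE 0.31, edgeR adjusted p 0.140) and 0.13 in HEL (SE 0.043, edgeR adjusted p 0.0078). LAMC1 was higher in HEL control than in K562 control by 6.20 on the log2 scale (SE 0.12, edgeR adjusted p 3.70e-21).

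LAMC3, another gamma chain, had 23 and 26 counts in K562 control, 1, 1 and 3 after DOT1L KO, 0, 2 and 0 after ENL KO and 0 in every HEL library. Scaled and pooled, control stood 16.7 times above DOT1L KO (95% interval 6.70 to 53.8) and 32.5 times above ENL KO (8.53 to 276, from 2 counts). The fitted log2 fold change was -3.95 after DOT1L KO (SE 0.56, edgeR adjusted p 5.72e-05; -4.69 without DOT1L KO replicate 3) and -4.81 after ENL KO (SE 0.68, edgeR adjusted p 7.81e-05; -7.65 without ENL KO replicate 2).

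Summed by kind and per kilobase of exon, alpha chains reached 22.4 ± 0.857 CPM (SD, n = 2) and beta chains 12.2 ± 0.075 in K562 control, while gamma chains reached 0.408 ± 0.021. After DOT1L KO the sums were 10.3 ± 1.25 for alpha, 31.8 ± 1.37 for beta and 0.166 ± 0.051 for gamma (SD, n = 3). After ENL KO they were 19.1 ± 0.929, 7.73 ± 0.545 and 0.063 ± 0.028. HEL control had 8.24 ± 0.593 for alpha, 20.7 ± 0.036 for beta and 15.5 ± 0.177 for gamma, and HEL KD had 8.09 ± 0.200, 19.0 ± 0.490 and 17 ± 0.643 (SD, n = 2). In every K562 library the gamma sum was the lowest of the 3 kinds, and in every HEL library the alpha sum was. LAMA5 made up most of the alpha sum in all groups.

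**Figure D3:**
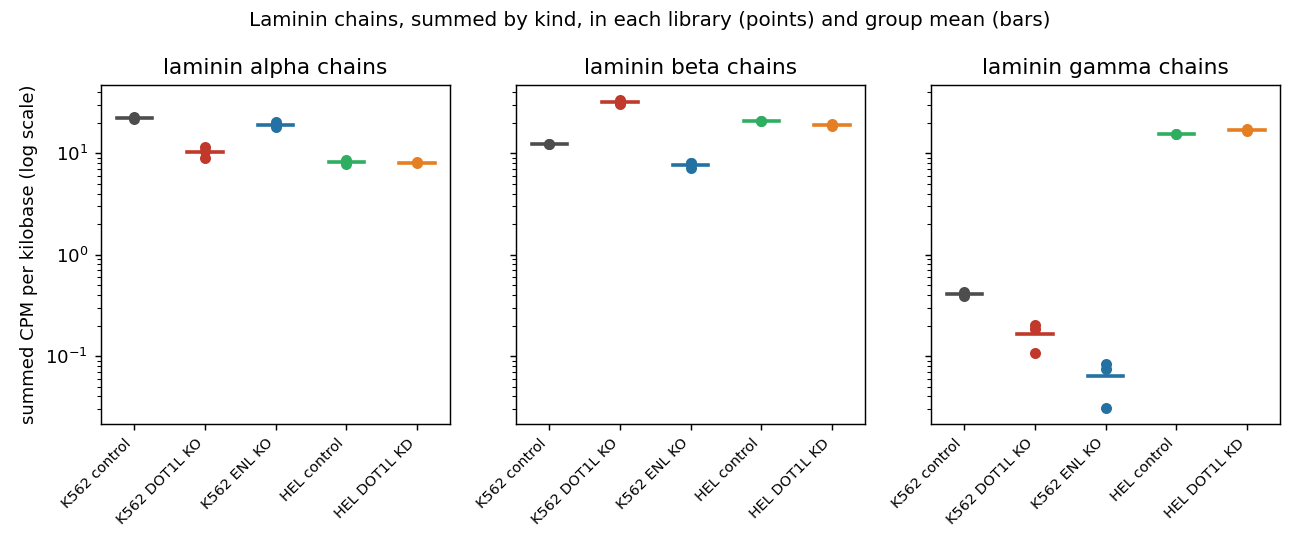
Summed CPM per kilobase of exon (y axis, log scale) of the alpha, beta and gamma laminin chains in each library (points) of the 5 groups (x axis), with bars at group means. In K562 the DOT1L KO libraries lie lowest for alpha and highest for beta chains, and the group means of gamma chains are 15.5 and 17 in HEL but at most 0.408 in K562.

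Type IV collagen forms networks from heterotrimers, and its 6 genes lie in head-to-head pairs. COL4A2 was 7.95 and 8.80 CPM in K562 control, 19.6, 18.6 and 20.9 after DOT1L KO, and 3.19, 2.82 and 3.13 after ENL KO, with no overlap between groups. The log2 fold change was 1.23 after DOT1L KO (SE 0.11, edgeR adjusted p 4.40e-07) and -1.46 after ENL KO (SE 0.13, edgeR adjusted p 1.09e-06). COL4A1, whose chain joins COL4A2's in the common type IV trimer and whose start lies 109 bases away across the gap printed above, had 0 counts in all 12 libraries. COL4A2 counts in HEL were 1 and 3 in control and 7 and 6 after KD, and it was not tested there.

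COL4A5, a chain of the kidney and skin network, was 5.95 and 6.62 CPM in K562 control, 14.5, 15.5 and 15.9 after DOT1L KO, and 2.61, 2.19 and 2.21 after ENL KO. HEL stood at 2.88 and 3.10 CPM in control and 5.17 and 4.64 after KD. It rose after DOT1L KO (log2 fold change 1.28, SE 0.11, edgeR adjusted p 6.70e-07) and after HEL KD (0.71, SE 0.22, edgeR adjusted p 0.0047), and fell after ENL KO (-1.42, SE 0.14, edgeR adjusted p 3.88e-06). Its head-to-head neighbour COL4A6, 346 bases away on chromosome X, had 0 and 3 counts in K562 control, 17, 19 and 15 after DOT1L KO and 0, 2 and 0 after ENL KO. The pooled ratio of DOT1L KO to control was 9.97 (95% interval 3.22 to 49.9). HEL held 10 and 14 COL4A6 counts in control and 7 and 23 after KD, and these groups overlapped. COL4A3 and COL4A4, the pair on chromosome 2, reached at most 4 counts and 1 count in any library.

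Multiplexins are basement membrane collagens with interrupted helices, and COL18A1 is the source of endostatin. COL18A1 was the most abundant collagen member per kilobase in every group. It was 128 and 123 CPM in K562 control, 330, 299 and 320 after DOT1L KO, and 243, 236 and 223 after ENL KO. Both knockouts were above control in every library, by 1.34 (SE 0.063, edgeR adjusted p 1.32e-09) and 0.90 (SE 0.062, edgeR adjusted p 9.15e-08) on the log2 scale. In HEL it was 125 and 113 CPM in control and 129 and 133 after KD (log2 fold change 0.14, SE 0.045, edgeR adjusted p 0.0069). Exons of SLC19A1, on the opposite strand, cover 17.1% of COL18A1's exonic bases. SLC19A1 was lower after DOT1L KO (log2 fold change -0.29), did not pass after ENL KO (-0.08, edgeR adjusted p 0.337) and was higher in HEL after KD (0.26, edgeR adjusted p 0.0035). Use of strand in counting is not given in the sources used here.

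COL15A1, the other multiplexin, was 10.7 and 10.5 CPM in K562 control, 66.5, 61.0 and 62.5 after DOT1L KO, and 4.83, 5.11 and 4.82 after ENL KO. Each group was tight and apart from the others. The log2 fold change was 2.58 after DOT1L KO (SE 0.085, edgeR adjusted p 6.94e-11) and -1.10 after ENL KO (SE 0.10, edgeR adjusted p 1.49e-06). HEL had 9 and 8 counts in control and 6 and 21 after KD, too few to be tested in HEL alone.

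Fibrillar collagens were mostly silent in K562, and the 2 that were tested rose after DOT1L KO. COL24A1, untested, had 2 and 5 counts in control, 1, 2 and 0 after DOT1L KO and 4, 2 and 4 after ENL KO. COL3A1, the fibre chain of skin, vessels and gut, was 1.95 and 1.89 CPM in K562 control, 12.7, 14.9 and 16.1 after DOT1L KO, and 0.580, 0.973 and 0.651 after ENL KO. COL5A2, which regulates fibril width, was 1.95 and 1.18 CPM in control, 5.91, 5.64 and 5.63 after DOT1L KO, and 1.01, 0.633 and 0.586 after ENL KO. The genes are neighbours, 19168 bases apart on chromosome 2. Both rose after DOT1L KO, by 2.92 (SE 0.17, edgeR adjusted p 1.17e-08) for COL3A1 and 1.86 (SE 0.22, edgeR adjusted p 9.23e-06) for COL5A2. Both fell after ENL KO, with log2 fold changes of -1.37 (SE 0.27, edgeR adjusted p 0.0012) and -1.05 (SE 0.30, edgeR adjusted p 0.0141).

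In HEL, COL3A1 had 0 counts in control and 1 and 0 after KD, at least 8.02-fold below K562 control. COL5A2 was 1.52 and 1.11 CPM in HEL control and 2.15 and 0.895 after KD, so these groups overlapped. HEL instead held COL2A1, the fibrillar chain of cartilage, at 80.9 and 76.0 CPM in control and 28.6 and 29.9 after KD. That was the largest change among the 14 members tested in HEL, -1.43 on the log2 scale (SE 0.064, edgeR adjusted p 1.49e-25). K562 libraries of all 3 groups held between 0 and 3 COL2A1 counts.

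Fibril-associated collagens decorate the surface of fibrils. COL21A1 had 1 and 3 counts in K562 control, 87, 171 and 86 after DOT1L KO, and 4, 4 and 2 after ENL KO. Its CPM after DOT1L KO was 3.95, 5.78 and 4.07. Pooled and scaled, DOT1L KO was 50.4 times control (95% interval 19.5 to 186), and the fitted log2 fold change was 5.55 (SE 0.41, edgeR adjusted p 1.13e-07; 6.47 without control replicate 2). COL9A1, a cartilage chain, had 2 and 3 counts in control, 93, 100 and 78 after DOT1L KO, and 4, 2 and 1 after ENL KO. The pooled ratio was 31.8 (95% interval 13.5 to 98.7) and the log2 fold change 4.93 (SE 0.37, edgeR adjusted p 1.12e-07). Neither gene exceeded 1 count in any HEL library.

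Other chains of this class did not follow. COL14A1 was 6.88 and 6.29 CPM in K562 control, 1.59, 1.22 and 1.14 after DOT1L KO, and 0.483, 0.827 and 0.651 after ENL KO, lower in both knockouts. Its log2 fold change was -2.33 after DOT1L KO (SE 0.19, edgeR adjusted p 3.21e-07) and -3.32 after ENL KO (SE 0.23, edgeR adjusted p 8.20e-08). Of the other type IX chains, COL9A3 was 2.56 and 1.94 CPM in control, 1.14, 1.05 and 1.37 after DOT1L KO and 2.85, 2.48 and 1.82 after ENL KO, lower than control after DOT1L KO and overlapping it after ENL KO (-0.94 on the log2 scale after DOT1L KO, SE 0.25, edgeR adjusted p 0.0072). COL9A2 fell after ENL KO (1.36 to 0.687 CPM; log2 fold change -1.01, edgeR adjusted p 0.0245) and was 14.8 and 13.7 CPM in HEL control. Exons of TCFL5, on the opposite strand, cover 5.85% of COL9A3's exonic bases, and TCFL5 too was lower after DOT1L KO (-0.30). HEL libraries held 0 to 3 COL9A3 counts and 0 or 1 COL14A1 counts.

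COL25A1, a transmembrane collagen of neurons and muscle whose shed part binds amyloid, moved in opposite directions in the lines. It had 11 and 9 counts in K562 control, 111, 127 and 98 after DOT1L KO, and 12, 8 and 12 after ENL KO. The DOT1L KO libraries stood at 5.04, 4.29 and 4.64 CPM, all above the other K562 libraries, and the log2 fold change was 3.29 (SE 0.26, edgeR adjusted p 2.40e-07). In HEL it was 19.2 and 20.2 CPM in control and 8.99 and 10.0 after KD, a difference of -1.05 on the log2 scale (SE 0.12, edgeR adjusted p 7.00e-11). COL23A1, the other transmembrane chain tested, stayed under 1 CPM in every group.

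COL7A1, the anchoring fibril chain that ties skin to its basement membrane, was 2.46 and 1.99 CPM in K562 control, 11.6, 9.80 and 12 after DOT1L KO, and 3.33, 2.00 and 1.63 after ENL KO. It rose after DOT1L KO (log2 fold change 2.31, SE 0.22, edgeR adjusted p 1.24e-06), and the ENL KO libraries overlapped control. In HEL, COL7A1 was 1.28 and 0.952 CPM in control and 0.954 and 1.14 after KD.

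Type VI chains form beaded filaments around cells. COL6A1 was 2.09 and 2.37 CPM in K562 control, 2.23, 1.86 and 1.70 after DOT1L KO, and 0.483, 0.341 and 0.391 after ENL KO. It was far lower after ENL KO (log2 fold change -2.44, SE 0.29, edgeR adjusted p 1.57e-05) and overlapped control after DOT1L KO (-0.21, edgeR adjusted p 0.440). Its neighbour COL6A2 was 1.27 ± 0.184 CPM in control (SD, n = 2), 0.930 ± 0.343 after DOT1L KO and 0.761 ± 0.216 after ENL KO (SD, n = 3), and passed in neither comparison (edgeR adjusted p 0.280 and 0.123). COL6A3 rose after DOT1L KO from 0.844 to 2.11 CPM (log2 fold change 1.32, SE 0.26, edgeR adjusted p 7.50e-04).

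COL6A5 was the most abundant type VI chain in both lines per kilobase, at 4.73 ± 0.176 CPM in K562 control against 0.528 ± 0.046 for COL6A1 (SD, n = 2). It was 42.5 and 44.8 CPM in K562 control, 36.2, 36.0 and 36.4 after DOT1L KO and 46.9, 47.3 and 50.7 after ENL KO. The HEL libraries had 14.9 and 14.2 CPM in control and 12.2 and 11.6 after KD. The change after loss of DOT1L was small in each line: -0.27 in K562 (SE 0.069, edgeR adjusted p 0.0050) and -0.30 in HEL (SE 0.12, edgeR adjusted p 0.0326). The HEL call was lost without HEL control replicate 1 (-0.26), without KD replicate 1 (-0.34) and without KD replicate 2 (-0.26).

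In HEL, DOT1L KD changed members in both directions, most of them by less than 1 on the log2 scale. Of the 14 tested, 8 passed, 4 higher (LAMB3, COL4A5, COL18A1 and LAMC1) and 4 lower (COL2A1, COL25A1, COL6A5 and LAMB2); over all 12635 genes 55.0% passed (27.0% higher and 28.0% lower). Of all genes called, 49.1% were higher, and 61.4% with upper-quartile scaling, under which COL6A5 lost its call (-0.22); it did so too with library-size scaling (-0.26). The median log2 fold change was 0.050 over members and 0.013 over all genes, and the median absolute change was 0.237 and 0.245. COL2A1 and COL25A1 were called with a change of 1 or more on the log2 scale, as were 5.84% of all genes. No member tested in HEL had a group at the floor. With DESeq2 the call was kept by COL2A1 and COL25A1 and lost by the other 6, and without KD replicate 1 the number called was 5. Beside this, the endothelial list summed to 348 to 363 CPM in HEL control and 578 to 589 CPM after KD, with CLDN5 at 0 in both, and the epithelial list to 36.0 to 37.5 and 64.8 to 71.4 CPM, with KRT5 and KRT14 at 0 in both. The fibroblast list summed to 70.2 to 74.4 and 72.6 to 73.8 CPM, with DCN, LUM and COL1A2 at 0 in both. Their part in the result was not tested.

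**Figure D4:**
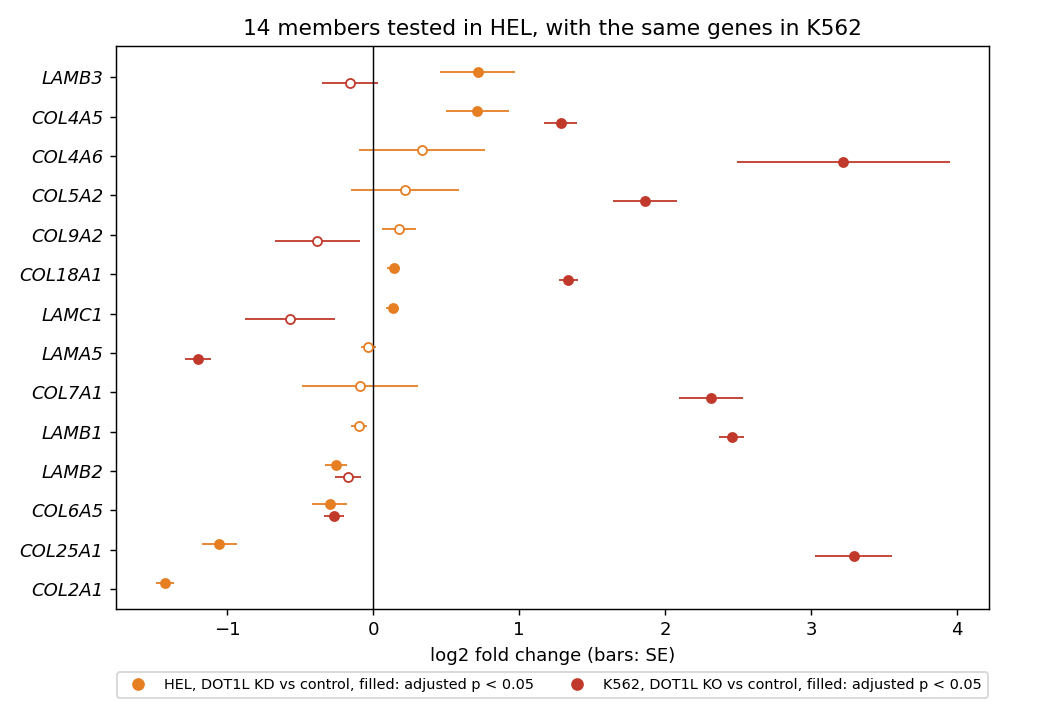
Log2 fold change (x axis, bars are SE) of the 14 members tested in HEL (y axis) after DOT1L KD in HEL (orange, n = 2 per group) and, where tested, after DOT1L KO in K562 (red, n = 3 against 2). Filled points passed an adjusted p of 0.05. LAMB1, COL7A1 and COL25A1 lie far to the right in K562 and at or left of 0 in HEL, and COL2A1 has no K562 point.

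Before any loss of DOT1L, the lines differed in many chains, but in a smaller share of members tested (74.2%) than of all genes. In a joint fit of 9 libraries, 23 of 31 members differed between HEL control and K562 control, 8 higher and 15 lower in HEL, beside 85.6% of all 15367 genes (41.3% higher and 44.2% lower). Cell line goes together with counting of reads against fragments and with the growth medium, and these cannot be told apart. Chains higher in HEL were COL2A1 (1970 pooled counts against 1), LAMC1, COL25A1 (log2 difference 5.44), COL9A2 (3.45), COL6A6 (2.43) and LAMB1 (1.62). COL4A6 and LAMB4 were also higher, at under 1 CPM. For COL2A1 the pooled ratio was 3345 (95% interval 600 to 132200, from 1 count).

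Lower in HEL were LAMA4 and COL3A1, both at 0 in HEL control, and also LAMC3 (0 counts, at least 4.80-fold lower) and COL6A3 (0 counts, at least 3.52-fold). COL4A2 was 52.6 times higher in K562 by pooled counts (95% interval 20.3 to 194), COL14A1 165 times (29.5 to 6559, from 1 count) and COL9A3 56.5 times (9.91 to 2256, from 1 count). COL15A1 (log2 difference -3.89), COL6A1 (-2.54), COL6A5 (-1.51), LAMA5 (-1.34), COL4A5 (-1.00) and COL7A1 (-0.92) were also lower, as were COL6A2 and COL8A2 at 4 and 2 HEL counts. COL7A1 lost its call without HEL control replicate 2 (-0.73). Of the 17 members with neither line at the floor, 11 were called, 5 higher and 6 lower in HEL. COL18A1 (log2 difference 0.00, SE 0.064, edgeR adjusted p 0.951) and LAMB2 (0.02, SE 0.088, edgeR adjusted p 0.809) did not pass. Their means were 119 and 125 CPM for COL18A1 and 40.6 and 41.9 CPM for LAMB2, in HEL and K562 control.

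**Figure D5:**
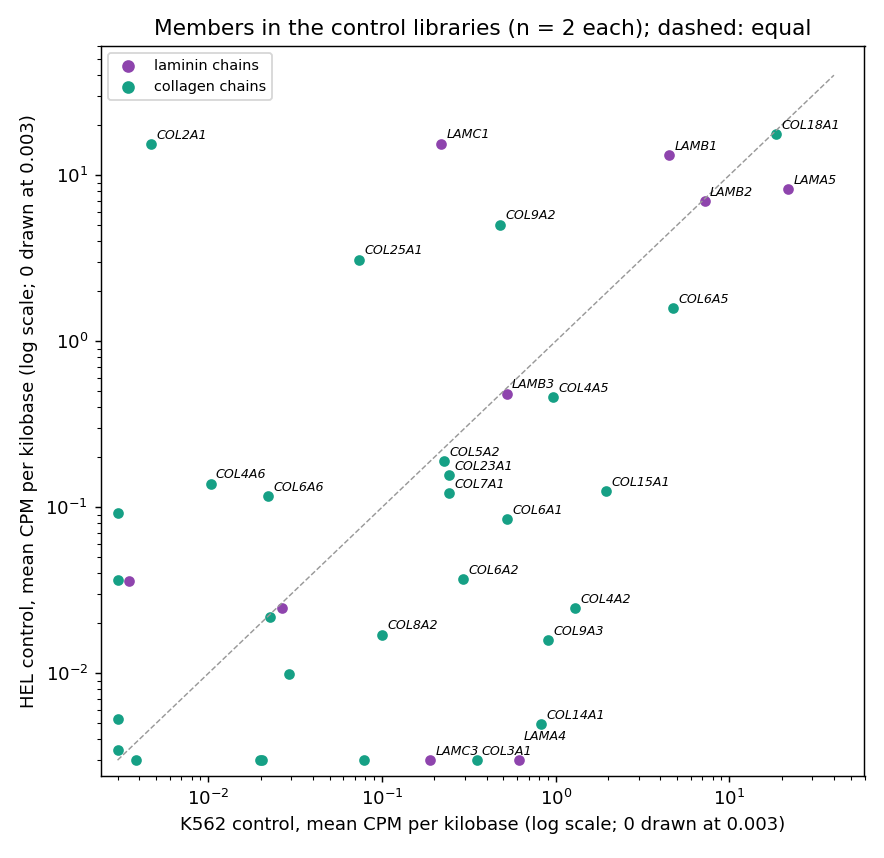
Mean CPM per kilobase of exon in K562 control (x axis, log scale) and HEL control (y axis, log scale) for each member with a count in either (n = 2 libraries each), with 0 drawn at 0.003 and the dashed line at equal levels. COL18A1 and LAMB2 lie on the line at high level, LAMC1 and COL2A1 lie far above it, and LAMA4, COL3A1 and LAMC3 sit at 0 in HEL.

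The response to loss of DOT1L itself differed between the lines in 13 of 31 members, 4 with a higher and 9 with a lower log2 fold change in HEL; 38.9% of all genes did so (19.8% and 19.1%). Here knockdown against knockout goes together with the cell line and cannot be told apart from it. LAMB1 differed most clearly (HEL minus K562 -2.53, SE 0.090, edgeR adjusted p 5.58e-15), followed by COL25A1 (-4.32, SE 0.27, edgeR adjusted p 4.70e-11), COL18A1 (-1.18, SE 0.087, edgeR adjusted p 6.50e-10) and LAMA5 (1.19, SE 0.12, edgeR adjusted p 9.38e-08). For COL6A5 and LAMB2 the difference did not pass (-0.01, SE 0.13, and -0.07, SE 0.12). Of 15 members with no group at the floor, 10 were called.

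Members that lie next to each other were read side by side. LAMB1 and LAMB4, COL3A1 and COL5A2, and COL4A5 and COL4A6 each had both genes called higher after DOT1L KO. LAMB4 and COL4A6 were kept by the filter through DOT1L KO alone, so they could hardly pass it without differing. After ENL KO the first gene of each of these pairs and COL5A2 fell, while LAMB4 (edgeR adjusted p 0.594) and COL4A6 (edgeR adjusted p 0.636), both under 0.1 CPM there and in control, did not pass. COL6A1 and COL6A2 (93069 bases apart) both had counts in K562 and did not move together. Neither passed after DOT1L KO, and after ENL KO only COL6A1 was called, lower. In some other pairs 1 gene carried all or most of the K562 counts: COL4A2 beside COL4A1, COL9A1 beside COL19A1 (3585 bases apart) and COL6A5 beside COL6A6 (75487 bases apart). COL19A1 had at most 2 counts in any K562 library.

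The enzymes that modify and fold collagen chains in the endoplasmic reticulum were largely lower in both knockouts. Of 19 tested, 17 passed after DOT1L KO (4 higher, 13 lower) and 15 after ENL KO (2 higher, 13 lower); in HEL 13 of 18 passed (5 higher, 8 lower). Over all genes 51.1%, 41.0% and 55.0% passed in these comparisons, with 24.2%, 22.2% and 28.0% lower. Of the enzymes called after DOT1L KO, 6 changed by 1 or more on the log2 scale, 2 higher (PLOD2 and P3H2) and 4 lower. The lysyl hydroxylase PLOD2 rose after DOT1L KO from 2.13 to 11.5 CPM (log2 fold change 2.43) and fell after ENL KO to 0.475 CPM (-2.15). P3H2, a prolyl hydroxylase acting on basement membrane collagen, rose after DOT1L KO from 0.164 CPM, near the floor, to 3.44 CPM (4.34). After ENL KO the chaperone FKBP10 fell from 2.35 to 0.498 CPM (-2.28), and P3H4, a partner of lysyl hydroxylase, from 6.99 to 2.31 CPM (-1.59). COLGALT2, which adds galactose to collagen, fell after ENL KO from 78.4 to 23.1 CPM (-1.76). In HEL, P4HA2 rose from 8.80 to 18.0 CPM (1.03).

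Of 9 genes tested for propeptide cleavage and cross-linking, 5 passed after DOT1L KO (4 higher, 1 lower), 5 after ENL KO (all lower) and 5 in HEL (1 higher, 4 lower), beside 51.1%, 41.0% and 55.0% of all genes. PCOLCE, which enhances procollagen cleavage, was 10.5 CPM in K562 control, 39.2 after DOT1L KO (1.90) and 4.49 after ENL KO (-1.21). PCOLCE2, its paralog, fell in HEL from 11.0 to 5.20 CPM (-1.09). Among basement membrane partners, 4 of 7 passed after DOT1L KO (3 higher, 1 lower), 4 of 7 after ENL KO (1 higher, 3 lower) and 6 of 8 in HEL (1 higher, 5 lower), beside the same shares. FREM1 rose after DOT1L KO from 0.118 to 5.47 CPM (5.47) and the fibulin FBLN2 from 0.565 to 13.3 CPM (4.55). The control mean of FREM1 was under the level of 3 counts in those libraries (0.139 and 0.142 CPM). The size of its change thus rests on few control counts. FRAS1 fell in HEL from 52.8 to 19.4 CPM (-1.45).

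Receptors for collagen and laminin passed in 7 of 11 after DOT1L KO (5 higher, 2 lower), 2 of 11 after ENL KO (1 in each direction) and 7 of 10 in HEL (3 higher, 4 lower), beside 51.1%, 41.0% and 55.0% of all genes. ITGA7, a laminin-binding integrin chain, rose after DOT1L KO from 1.6 to 8.03 CPM (2.33). BCAM, which binds laminin alpha 5 on red cells, was 8.09 CPM in K562 control, 17.2 after DOT1L KO (1.09) and 2.05 after ENL KO (-1.98). Of the 10 matrix-degrading enzymes listed, 3 were tested, of which 2 passed after DOT1L KO and 1 after ENL KO, all lower. In HEL, MMP14 (67.7 CPM after KD and 70.4 in control, edgeR adjusted p 0.389) and MMP15 (1.81 and 1.39, edgeR adjusted p 0.356) did not pass.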

How the data were processed

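Per the file headers, the authors deposited raw counts per gene, as fragment counts for K562 and read counts for HEL, from polyadenylated, strand-marked libraries. Per the submitters' processing notes, fastp 0.13.1, HISAT2 2.1.0, Bowtie2 2.3.4.1 and featureCounts 1.6.1 and the builds hg38 and hg19 were used somewhere in the series; their roles, and use of strand in counting, are not given in the sources used here. Of the series' 74 samples, the 13 of RNA-seq were used.

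Genes were filtered with filterByExpr (minimum count 10, minimum total 15), scaled with TMM and tested with the quasi-likelihood test of edgeR 4.0.16 in R 4.3.3, with Benjamini-Hochberg adjustment over all genes tested and a threshold of 0.05, after a check on simulated data. K562 (8 libraries) and HEL (4) were fitted separately, and comparisons between lines in a joint fit of 9. Alternatives were DESeq2 1.42.0, other scalings, filters, a replicate block and leaving out each library. Pooled ratios carry exact 95% intervals.

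The members and lists were chosen with earlier results of these data known. Members named were those called at a mean of 1 CPM or more, by size of change, with set basement membrane and type VI chains always described; list genes named were called, changed by at least 1 on the log2 scale and at 1 CPM or more. Others named were chosen after their values were seen. Values of 1 member are not reported here.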

Additional observations from a re-analysis of the deposited data

Results flagged for a closer look

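The response to loss of DOT1L differed between HEL and K562 by the test of the difference itself in 12 members at 1 CPM or more, given here as the log2 fold change in HEL minus that in K562. Multiplexins differed by -1.88 (COL15A1) and -1.18 (COL18A1). Other collagens differed by -4.32 (COL25A1), -2.85 (COL4A6), -1.63 (COL5A2), -2.57 (COL6A6) and -2.38 (COL7A1). Laminin alpha and gamma chains differed by 1.19 (LAMA5) and 0.73 (LAMC1), and beta chains by -2.53 (LAMB1), 0.89 (LAMB3) and -6.23 (LAMB4). COL4A6 and LAMB4 were at or under the floor in K562 control, with at most 3 and 1 counts per library. LAMB4 was so in HEL KD too, and the filter kept it through K562 DOT1L KO alone. The sizes of these 2 differences thus rest on few counts.

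The difference of COL15A1 was -1.23 without HEL KD replicate 1 and -3.06 without HEL KD replicate 2. That of COL4A6 was -6.30 without K562 control replicate 2 and -3.96 without HEL KD replicate 2, but -1.88 without K562 control replicate 1, -2.22 without HEL KD replicate 1 and -2.60 without HEL control replicate 2, where the call was lost. For LAMB4 it was -8.32 without K562 control replicate 1 and -5.40 without K562 control replicate 2, and for COL5A2 it was -2.39 without HEL KD replicate 1, and the call was lost without HEL control replicate 1 (-1.38) or HEL KD replicate 2 (-1.14).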

How the results depend on the processing

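Over 94 member results and 1528 alternative values, 1455 kept their direction and side of the threshold, 73 lost the call and 0 reversed. With a minimum count of 50, 10 members were called after ENL KO and 14 between HEL and K562 control. Asking also for an absolute log2 fold change of 1 left 15 between the knockouts and 2 in HEL, where DESeq2 called 2 and no filter 5. Leaving out 1 library gave 20 in every case for DOT1L KO, 11 to 16 for ENL KO, 20 to 25 between the knockouts, 5 to 7 in HEL (5 without HEL KD replicate 1), 21 to 24 between the lines and 8 to 13 for the difference in response (8 without HEL control replicate 1). In that difference LAMB3, LAMC1, COL4A6, COL6A6, COL5A2 and COL15A1 lost the call without some library; the cause was not tested. With 1 control library left, it was assumed to vary like the other groups.

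Between the lines, COL2A1 differed by 10.55 and 13.51 without K562 control replicate 1 or 2, COL14A1 by -6.20 and -9.96 and COL9A3 by -4.66 and -8.42 without HEL control replicate 1 or 2. COL6A2 differed by -3.83 without HEL control replicate 1 and COL4A2 by -6.53 without HEL control replicate 2. Between the knockouts LAMB4 differed by 5.15 without ENL KO replicate 1.

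The labels number the libraries of each group, but same-numbered libraries did not deviate together throughout. In K562 their r was always positive: 0.527, 0.0801 and 0.244 between the knockouts, 0.324 and 0.206 between control and DOT1L KO, and 0.336 and 0.0669 between control and ENL KO. In HEL it was -0.0102. Differently numbered K562 libraries had r from -0.444 to 0.286, so some stood above same-numbered ones. The numbers were not taken as pairs in the main fit. With a replicate block, 20 members were called after DOT1L KO, 16 after ENL KO, where LAMA4 lost its call, 23 between the knockouts, 8 in HEL, 22 between the lines, where COL6A2 lost its call, and 13 for the difference in response. Over all genes the block moved the calls from 7305 to 8340 after DOT1L KO, from 5863 to 7021 after ENL KO and from 6951 to 6903 in HEL.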

Other observations

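Some members too low to be tested still had counts in a group. COL11A1, a fibrillar chain of cartilage, had 9, 13 and 10 counts after DOT1L KO and 0 in every K562 control and ENL KO library. The DOT1L KO level was at least 3.10-fold higher than control, with the floor at 3 counts per library. COL10A1, the chain of hypertrophic cartilage, had 1, 4 and 0 counts after ENL KO and 0 elsewhere. In HEL, COL19A1 had 2 and 6 counts in control and 3 and 10 after KD.

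Summed over all 42 collagen chains, K562 held 216.9 ± 3.29 CPM in control (SD, n = 2), 507.1 ± 19.6 after DOT1L KO and 304.6 ± 9.98 after ENL KO (SD, n = 3). COL18A1 alone made up 125.2, 316.4 and 233.8 CPM of these sums. It was the 1 collagen chain called higher after ENL KO, while 9 were called lower. HEL held 256.3 ± 12.6 CPM in control and 210.5 ± 7.90 after KD (SD, n = 2). The 12 laminin chains summed to 326.5 ± 10.5, 296.6 ± 19.8 and 261.7 ± 12.8 CPM in the K562 groups in the same order, and to 333.9 ± 5.65 and 333.7 ± 0.137 CPM in HEL. Per kilobase of exon the K562 laminin sums were 35.08 ± 0.91 CPM in control, 42.29 ± 2.29 after DOT1L KO and 26.94 ± 1.36 after ENL KO. The direction after DOT1L KO thus depended on the scale.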
